A study of Mus musculus with 3 samples.

Results

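The Hox genes described here are the genes whose symbol is Hox followed by a cluster letter from a to d and a number. The rule found 19 of the 23721 genes that the cell and nucleus tables hold together. Of these, 16 were among the 21507 genes held by both tables, among them Hoxa2, Hoxa7 and Hoxa9, Hoxb2 to Hoxb8, Hoxc4 and Hoxc5, and Hoxd3, Hoxd8 and Hoxd9. That is 4 members of the Hoxa cluster, 7 of Hoxb, 2 of Hoxc and 3 of Hoxd. Hoxa10, Hoxb1 and Hoxb9 were rows of the cell table only, with 3, 2 and 5 transcript counts, and entered no sum. Other Hox genes were not analysed here.

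The study set isolated cells against isolated nuclei as starting material for droplet sequencing of mouse lung, with 3' v3 chemistry on the 10x Chromium platform. There was 1 library of cells, digested enzymatically from fresh lungs of wild type C57Bl/6J mice, and 2 libraries of nuclei, lysed out of snap-frozen lung tissue of wild type adult C57Bl/6J mice. No mouse carried a transgene or received a treatment according to the labels, and the mice that gave cells have no stated age. Cell or nucleus and fresh or frozen tissue differed together and cannot be told apart. The labels name no animals, so p-values measure only the spread between these libraries, which may be technical.

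Hox genes encode homeodomain transcription factors and sit in clusters in which gene order follows the order of their expression along the head to tail axis of the embryo. Anterior and middle members are active in the mesenchyme of the developing lung, where Hoxb5 takes part in branching of the airways, and adult connective tissue cells and vessel cells keep a positional Hox pattern. Hox proteins bind DNA together with the homeodomain partners of the Pbx and Meis families.

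After filtering, 11934 cells and 6759 and 9806 nuclei were described. The median barcode held 2864, 4152 and 2521 unique transcript counts (UMIs), a depth at which a gene of low level is missed in most barcodes. Levels below are counts per 1000000 UMIs (CPM) summed over all barcodes of a lineage or class in 1 library, in the order cells, nucleus replicate 1, nucleus replicate 2. Classes were rebuilt from clusters by marker genes with all Hox genes left out of the clustering, and carry the ending "-like". Each lineage held the highest level of its own markers within each library, with those of other lineages present at lower levels. The 6 pan-mesenchymal markers summed to between 1169 and 2005 CPM in the mesenchymal lineage and to at most 339 CPM elsewhere. The 8 pan-endothelial markers summed to between 4904 and 6926 CPM in the endothelial lineage and reached 2186 CPM in mesenchymal cells, against 306 and 529 CPM in mesenchymal nuclei. The 5 pan-immune markers reached 1143 CPM in mesenchymal cells, where the immune lineage had 4060 CPM. Their part in the Hox levels was not tested. No pan-lineage marker was at 0 in any lineage. Between 21 and 24 barcode sequences were shared by each pair of libraries.

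Mesenchymal-like and endothelial-like barcodes held the highest Hox levels in every library. The 16 Hox genes summed to 157, 116 and 144 CPM in the mesenchymal lineage (819, 661 and 739 UMIs; 139 ± 21.1 CPM, SD, n = 3 libraries). They summed to 100.4, 77.6 and 79.6 CPM in the endothelial lineage (85.8 ± 12.6 CPM, SD, n = 3). The epithelial lineage held 41.2, 9.70 and 11.2 CPM, and the immune lineage 18.6, 18.4 and 30.2 CPM. Mesenchymal values lay above endothelial values in each library and the groups did not overlap, and both lay above every epithelial and immune value.

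In cells the epithelial sum lay above the immune sum, and in both nucleus libraries it lay below it. Pan-endothelial markers summed to 1997 CPM in epithelial cells against 283 and 327 CPM in epithelial nuclei. Pan-mesenchymal markers summed to 339 CPM there against 79.8 and 96.5 CPM. Their part in the epithelial Hox level was not tested. In type 2 pneumocyte-like (AT2-like) barcodes, which make surfactant, the sum was 47.5 CPM in cells and 8.53 and 11.05 CPM in nuclei. Type 1 pneumocyte-like (AT1-like) barcodes, which form the gas exchange surface, likewise had their highest value in cells, with 41.7, 12.01 and 12.4 CPM.

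**Figure D1:**
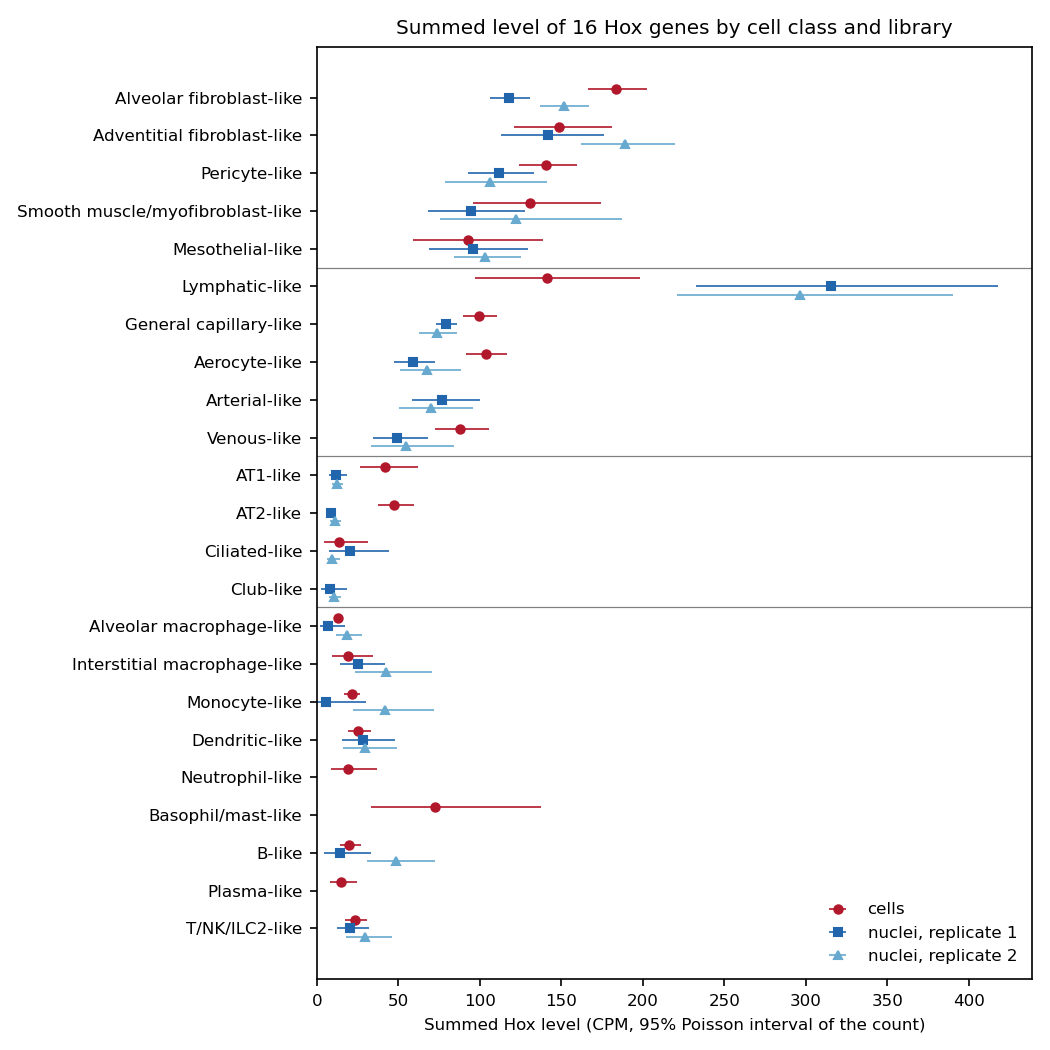
Summed level of the 16 Hox genes (x axis, CPM) in each cell class (y axis, grouped by lineage), 1 point per library, with bars for the 95% Poisson interval of the count. The lymphatic-like points of the nuclei sit at 315 and 297 CPM, the fibroblast-like classes between 118 and 189 CPM, and the epithelial and immune classes at or below 48.5 CPM except the basophil or mast-like one at 72.6 CPM.

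Detection at equal depth gave the same order. Each barcode with at least 1000 UMIs was thinned to 1000 UMIs, and barcodes below that depth were left out. These were 253 barcodes of nucleus replicate 2, among them 47 mesenchymal and 156 immune ones, and 0 of the other libraries. A Hox UMI was then found in 14.7% of mesenchymal cells (255 of 1733, exact 95% interval 13.1 to 16.5%) and in 11.2% and 13.3% of mesenchymal nuclei. In the endothelial lineage the shares were 9.36% (256 of 2736, 8.29 to 10.5%), 6.89% and 7.46%. Epithelial shares were 3.05%, 1.11% and 1.10%, and immune shares 1.96%, 1.75% and 3.02%. Alveolar macrophage-like barcodes, taken as a reference class for stray transcripts, had 1.20% (0.791 to 1.74%), 0.649% and 1.57%. The epithelial share in cells (1.96 to 4.50%) lay above that interval. The intervals of the epithelial nuclei overlapped those of the macrophage-like nuclei. Whether macrophage-like barcodes hold the same share of stray transcripts as epithelial ones was not tested. Neither comparison therefore shows whether the epithelium expresses Hox genes, and these shares were not read as expression. Without thinning, 33.9% of mesenchymal barcodes held a Hox UMI on average over the 3 libraries, at median depths of 2903, 4508 and 2741 UMIs. Among endothelial barcodes 21.1% did, at lower median depths of 2652.5, 4004 and 2019.5 UMIs.

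Most Hox-positive barcodes showed 1 Hox gene. At 1000 UMIs, 20 of 255 Hox-positive mesenchymal cells held UMIs of 2 Hox genes (7.84%), as did 7 of 147 (4.76%) and 16 of 233 (6.87%) mesenchymal nuclei. No mesenchymal barcode held more than 2, and 1 endothelial cell held 3. At this depth a joint pattern of several Hox genes within 1 cell was not detectable.

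The Hoxb cluster gave most Hox UMIs in all lineages. In the mesenchyme Hoxb genes summed to 119, 105 and 126 CPM, which was 76.1%, 91.2% and 87.8% of Hox UMIs. Hoxa genes followed with 35.1, 7.17 and 12.1 CPM. Hoxc genes had 1.92, 2.27 and 5.07 CPM and Hoxd genes 0.575, 0.700 and 0.390 CPM. The endothelium had the same order for Hoxb (82.4, 69.7 and 60.7 CPM) and Hoxa (15.4, 3.79 and 7.26 CPM), but more Hoxd (2.46, 3.60 and 9.19 CPM) than the mesenchyme in each library. Hoxb3, Hoxb4 and Hoxb5 alone gave 62.6%, 82.9% and 82.9% of mesenchymal Hox UMIs. These shares count UMIs of a 3' assay, are not divided by length, and depend on how well each transcript is captured.

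Members near the posterior end of the clusters were close to 0. In whole libraries Hoxa9 had 3, 0 and 4 UMIs and Hoxd9 5, 2 and 0 UMIs, against 230, 36 and 68 for Hoxa7 and 617, 506 and 336 for Hoxb4. Hoxb6, Hoxb7 and Hoxb8, which lie between Hoxb5 and the posterior end, had between 10 and 49 UMIs per library. Hoxc5 had 14, 7 and 24 UMIs.

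In the tests between lineages only 6 members had enough counts to be tested: Hoxa2, Hoxa7, Hoxb2, Hoxb3, Hoxb4 and Hoxb5. A member that is high in 1 lineage can pass the filter through that lineage alone, so their counts describe these 6 and not all 16. All 6 were higher in mesenchymal than in epithelial barcodes (edgeR, adjusted p under 0.05), where 10.8% of the 16188 genes tested were higher. All 6 were higher than in immune barcodes, against 18.3% of genes. In the endothelium 5 of 6 were higher than in the epithelium, against 11.7% of genes, and 6 of 6 were higher than in immune barcodes, against 14.7%. In the other direction 0 members were called, where 13.3%, 14.8%, 17.1% and 14.7% of genes were lower in these contrasts. Without nucleus replicate 1 Hoxa7 and Hoxb5 lost the call of mesenchyme against epithelium, and without nucleus replicate 2 Hoxb2 and Hoxb5 lost it. The endothelium against epithelium then had 2 calls, of 7 and of 8 members tested. Calls over all genes fell as well, for mesenchyme from 1756 higher to 837 and 613, and for endothelium from 1901 to 988 and 573. The endothelium against immune barcodes had 3 calls without nucleus replicate 1 (1470 genes higher) and without the cells (1776 genes), against 2380 genes with all libraries. The median log2 difference of the 6 was 2.90 for mesenchyme against epithelium and 2.18 for endothelium against epithelium, beside -0.03 and -0.06 over all genes tested.

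Hoxa2, which patterns the hindbrain and branchial arches, lies on chromosome 6 (52162417 to 52164831 of GRCm38, minus strand). It stood at 12.1, 4.20 and 3.51 CPM in mesenchyme, 6.21, 2.24 and 3.14 CPM in endothelium, and 1.58, 0.584 and 0.421 CPM in epithelium. Mesenchymal and endothelial values overlapped each other, and neither overlapped the epithelial ones. The log2 difference was 2.89 (SE 0.40, edgeR adjusted p = 0.00099) for mesenchyme and 2.26 (SE 0.40, adjusted p = 0.0029) for endothelium, each against epithelium. Hoxa2 overlaps the gene model Gm28308 on the same strand, and reads could be split between them, so its level is uncertain.

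Hoxa7 (chromosome 6, 52214491 to 52221854) is a middle gene of the cluster that takes part in patterning of the trunk. Its mesenchymal level was 19.9, 2.80 and 6.24 CPM, its endothelial level 7.76, 1.26 and 3.14 CPM, and its epithelial level 5.94, 0.584 and 0.982 CPM. Mesenchyme was the highest lineage within each library, while the values overlapped across libraries. The difference between mesenchyme and epithelium was a log2 value of 2.10 (SE 0.38, edgeR adjusted p = 0.0036). Between endothelium and epithelium it was 1.01 and missed the threshold (adjusted p = 0.086).

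Hoxb2 (chromosome 11, 96350525 to 96354012), a hindbrain regulator, had 8.81, 2.80 and 3.31 CPM in mesenchyme and 2.59, 3.60 and 0.968 CPM in endothelium. Its epithelial values, 0.792, 0.350 and 0.491 CPM, and its immune values, at most 0.361 CPM, lay below all of these. The log2 difference of mesenchyme against epithelium was 2.92 (SE 0.54, edgeR adjusted p = 0.0041).

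Hoxb3, Hoxb4 and Hoxb5 lie side by side on the plus strand of chromosome 11 between 96303336 and 96347930 of GRCm38. Hoxb3, at 24605 bp the longest of them, had 28.9, 56.8 and 71.3 CPM in mesenchyme and 14.4, 32.9 and 33.9 CPM in endothelium. Its epithelial level was 5.94, 1.99 and 2.53 CPM, and no epithelial value reached an endothelial one. Hoxb3 had the largest log2 difference between mesenchyme and epithelium of the 6 members tested, 3.99 (SE 0.49, edgeR adjusted p = 6.2e-04). Hoxb4, known as a regulator of blood stem cells, had 38.3, 30.8 and 36.4 CPM in mesenchyme and 31.3, 28.3 and 19.1 CPM in endothelium. Hoxb4 in epithelium was 12.3, 2.34 and 2.46 CPM, below every mesenchymal and endothelial value (log2 difference to mesenchyme 2.92, SE 0.45, adjusted p = 0.0017).

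Hoxb5, which takes part in airway branching and in vessel precursors, had 31.0, 8.22 and 11.7 CPM in mesenchyme and 31.4, 4.08 and 6.29 CPM in endothelium. Its epithelial level of 11.5 CPM in cells lay above the endothelial level of both nucleus libraries, where the epithelium had 2.34 and 2.11 CPM. Within each library mesenchyme and endothelium were above epithelium. The log2 difference to epithelium was 1.80 (SE 0.37, edgeR adjusted p = 0.0070) for mesenchyme and 1.34 (SE 0.37, adjusted p = 0.024) for endothelium. Both Hoxb5 calls were lost without nucleus replicate 1, without nucleus replicate 2 and with no replicate block.

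**Figure D2:**
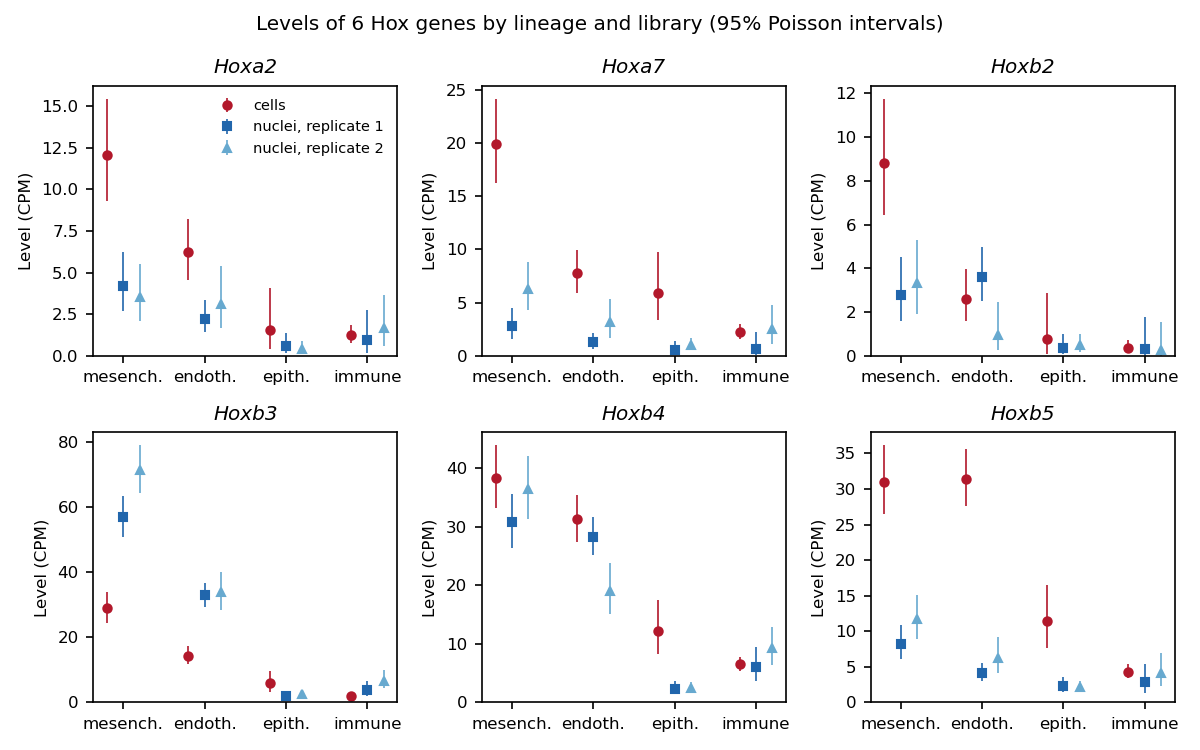
Levels (y axis, CPM) of the 6 Hox genes tested between lineages (x axis), 1 point per library with 95% Poisson intervals. Hoxb3 in mesenchyme stands at 28.9 CPM in cells against 56.8 and 71.3 CPM in nuclei, while Hoxb5 there stands at 31.0 CPM in cells against 8.22 and 11.7 CPM in nuclei.

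Between mesenchyme and endothelium 0 of these 6 members were called by edgeR, where 11.3% of genes were higher and 8.59% lower in mesenchyme. At an unadjusted p under 0.05 there was 1, Hoxa7, and DESeq2 called 0. Without the cells there were 2 calls, Hoxb3 higher and Hoxd3, which was not among these 6, lower in mesenchyme. The log2 differences were all toward mesenchyme, from 0.34 for Hoxb4 (SE 0.40) to 1.09 for Hoxa7 (SE 0.36, edgeR adjusted p = 0.060). Hoxa2, Hoxa7, Hoxb3 and Hoxb4 were higher in mesenchyme in 3 of 3 libraries. Calls in both directions appeared among the 16 members once the low-count filter was left out. Hoxc4, Hoxb6, Hoxb7 and Hoxb8 were then higher in mesenchyme and Hoxd3 and Hoxd8 lower. In that setting 1822 of 21500 genes were higher in mesenchyme and 1578 lower. Hoxb6 had 4.02, 1.92 and 0.780 CPM in mesenchyme and 0.776, 0.0972 and 0 CPM in endothelium, and Hoxb7 and Hoxb8 were likewise above their endothelial level in each library. Hoxd8 had 0 UMIs in the mesenchyme of all 3 libraries and 8, 7 and 3 UMIs in endothelium.

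Lymphatic endothelial-like barcodes held the highest summed Hox level of the classes in both nucleus libraries. These cells line the vessels that drain tissue fluid, and their clusters had the lymphatic regulator Prox1 at 483, 946 and 489 CPM and Mmrn1 at 885, 1852 and 832 CPM. The class held 82, 39 and 67 barcodes, 0.660% of the total. Hox genes summed to 141, 315 and 297 CPM on 33, 48 and 51 UMIs, and Hoxd genes alone to 77.0, 217 and 209 CPM. In cells the sum lay below those of the alveolar (184 CPM) and adventitial fibroblast-like classes (149 CPM), so the order held in nuclei only.

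Hoxd3 and Hoxd8 made up nearly all of that Hoxd level. Both lie on the plus strand of chromosome 2 of GRCm38, Hoxd8 at 74704615 to 74707933 and Hoxd3 at 74711927 to 74748442. Their promoters are shown because both genes had most of their UMIs in this class, beside that of Hoxb4, which was found across mesenchyme and endothelium. The bases before each start site are from RefSeq (GRCm38.p6, plus strand), at chr2:74704365-74704614, chr2:74711743-74711926 and chr11:96318017-96318266. Capitals mark TAAT, the core that homeodomain proteins bind, and AGGTCA, the core letters of nuclear receptor sites, on either strand (ATTA and TGACCT).
Hoxd8: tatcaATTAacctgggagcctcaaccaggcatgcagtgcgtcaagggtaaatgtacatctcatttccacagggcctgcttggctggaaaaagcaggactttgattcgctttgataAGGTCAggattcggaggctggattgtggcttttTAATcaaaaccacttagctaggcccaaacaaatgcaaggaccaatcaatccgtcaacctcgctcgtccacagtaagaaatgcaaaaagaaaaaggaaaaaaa
Hoxd3: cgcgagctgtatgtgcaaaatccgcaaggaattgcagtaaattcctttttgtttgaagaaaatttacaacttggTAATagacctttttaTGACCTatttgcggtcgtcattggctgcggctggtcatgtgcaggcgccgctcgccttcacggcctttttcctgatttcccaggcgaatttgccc
Hoxb4: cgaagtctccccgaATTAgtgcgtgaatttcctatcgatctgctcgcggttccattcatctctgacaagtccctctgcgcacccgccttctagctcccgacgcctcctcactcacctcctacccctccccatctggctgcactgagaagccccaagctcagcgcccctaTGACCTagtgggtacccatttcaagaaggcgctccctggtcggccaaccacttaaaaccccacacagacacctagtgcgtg
TAAT was found 2 times in the Hoxd8 stretch and 1 time in each of the others, and AGGTCA 1 time in each. Of 32851 RefSeq promoters of 250 bases, 54.9% hold TAAT and 14.0% AGGTCA. A match is a description of letters, not a site. Promoters of 11 of the 19 members were matched, and 66 bases of the Hoxd3 stretch that lie within a Hoxd3 transcript were left out.

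Hoxd3 had 9, 27 and 33 UMIs in lymphatic-like barcodes, or 38.5, 177 and 192 CPM. The other endothelial classes together held 0, 2 and 2 UMIs. The level was at least 96.2-fold higher in cells, against a floor of 3 counts in the rest of the endothelium. In nuclei the ratio was 899 (95% counting interval 226 to 7798) and 380 (97.3 to 3272). Of all 94 Hoxd3 UMIs of the 3 libraries, 69 were in this class (73.4%, exact interval 63.3 to 82.0%). Without thinning, a Hoxd3 UMI was found in 8 of 82 cells (9.76%) and in 19 of 39 (48.7%) and 25 of 67 nuclei (37.3%). Venous-like barcodes held none among 461 cells, which allows a share of cells with a Hoxd3 UMI of up to 0.651% (3 counts of the total).

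Hoxd8 had 7, 6 and 3 UMIs in lymphatic-like barcodes (29.9, 39.4 and 17.5 CPM) against 1, 1 and 0 in the other endothelial classes. The ratio was 224 (28.8 to 10113) in cells, 399 (48.5 to 18372) in nucleus replicate 1 and at least 23.1-fold in replicate 2. Of 22 Hoxd8 UMIs in all, 16 were in this class (72.7%). edgeR called both genes higher than in the mean of the other endothelial classes, with adjusted p = 7.9e-08 for Hoxd3 and 4.1e-05 for Hoxd8. These were 2 of 5 members tested, where 6.81% of genes were higher and 6.31% lower, and both passed the low-count filter through the lymphatic-like sums themselves. DESeq2 called Hoxd3 but not Hoxd8 (adjusted p = 0.14), and leaving out any 1 library left the call of Hoxd3 alone. Hoxb3, Hoxb4 and Hoxb5 were not called in this class.

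Hoxd3os1, a non-coding gene on the opposite strand that overlaps Hoxd3 and Hoxd8, followed the same classes. It had 3, 17 and 7 UMIs in lymphatic-like barcodes (12.8, 112 and 40.7 CPM), which were 3 of 3, 17 of 19 and 7 of 7 of its endothelial UMIs. Whether counting used the strand is not given in the sources used here, so reads of the pair cannot be told apart. Hoxd9, the next gene of the cluster, had 2 UMIs in lymphatic-like cells and 0 in the nuclei.

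**Figure D3:**
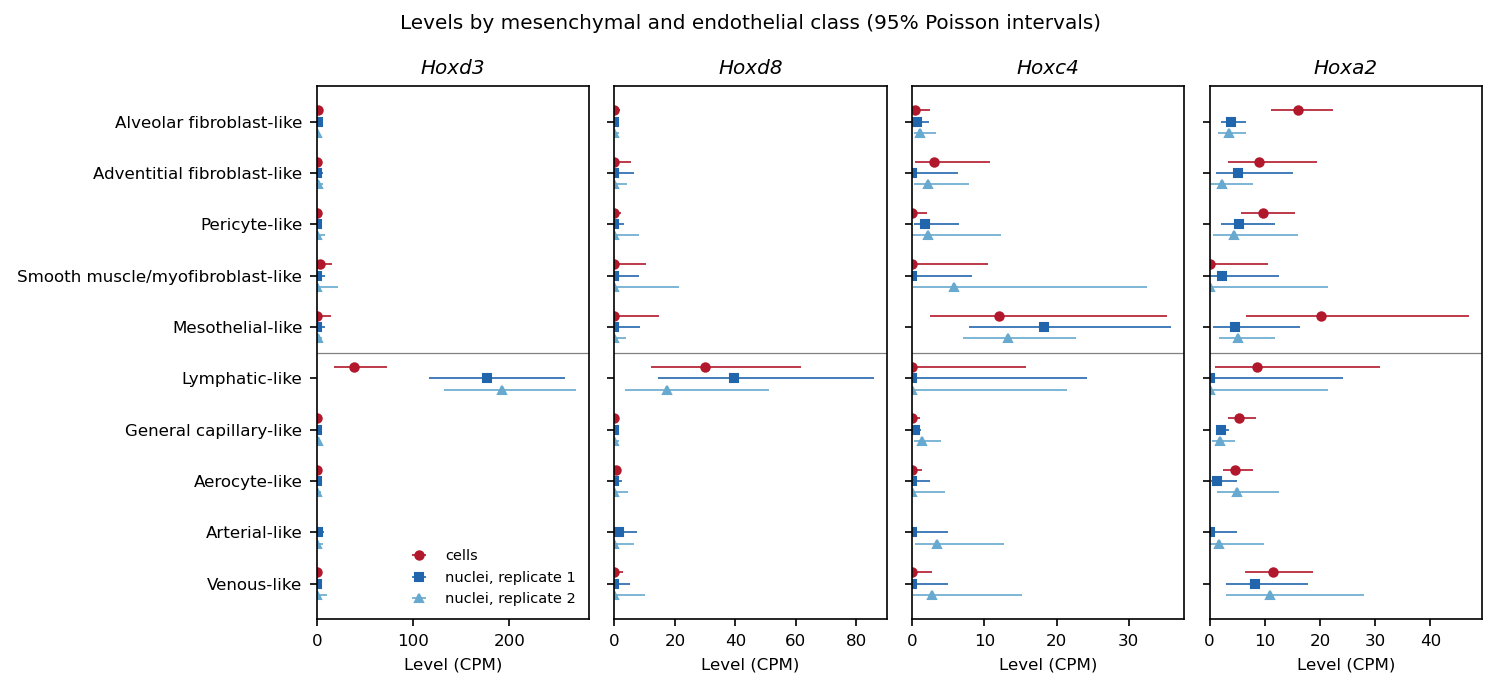
Levels (x axis, CPM) of Hoxd3, Hoxd8, Hoxc4 and Hoxa2 in the mesenchymal and endothelial classes (y axis), 1 point per library with 95% Poisson intervals. Hoxd3 and Hoxd8 stand out in the lymphatic-like row, and Hoxc4 in the mesothelial-like row at 12.1, 18.2 and 13.3 CPM.

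Mesothelial-like barcodes, from the lining of the lung surface, differed from the other mesenchymal classes in both directions. Their markers were present, with Msln at 1140, 146 and 382 CPM and Wt1 at 225, 367 and 527 CPM. Hoxc4 (chromosome 15, 103018934 to 103036852) had 3, 8 and 13 UMIs in these 79, 101 and 336 barcodes, or 12.1, 18.2 and 13.3 CPM. The other mesenchymal classes held 0.603, 0.758 and 1.69 CPM. The ratios were 20.02 (95% counting interval 2.68 to 149), 24.0 (6.44 to 109) and 7.87 (2.92 to 23.3). Of 53 Hoxc4 UMIs in all, 24 were in this class (45.3%, 31.6 to 59.6%), which made up 1.81% of barcodes. Hoxc4 did not pass the low-count filter. Without the filter edgeR called it higher, with adjusted p = 8.1e-06.

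Hoxb3 and Hoxb5 were lower in mesothelial-like barcodes, 2 of 4 members tested, where 9.91% of genes were higher and 8.36% lower. Hoxb3 stood at 4.03, 29.6 and 46.9 CPM on 1, 13 and 46 UMIs, against 30.2, 59.1 and 77.1 CPM in the rest of the mesenchyme (log2 difference -0.84, SE 0.24, edgeR adjusted p = 0.025). Hoxb5 stood at 8.05, 9.11 and 3.06 CPM on only 2, 4 and 3 UMIs, against 32.2, 8.15 and 13.7 CPM (log2 difference -1.56, SE 0.50, adjusted p = 0.041). The CPM of the rest pool the UMIs of its classes, while the log2 differences are to the equal-weight mean of the other mesenchymal classes. The Hoxb5 counts, and that of Hoxb3 in cells, lay near or below the floor of 3 counts. Hoxb3 was lower in 3 of 3 libraries and Hoxb5 in 2 of 3. Neither was called without nucleus replicate 2 or without the cells, and 1 was called without nucleus replicate 1.

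The other mesenchymal classes held similar sums. Adventitial fibroblast-like barcodes, from the sheath of vessels and airways, had 160 ± 25.6 CPM (SD, n = 3) and alveolar fibroblast-like barcodes 151 ± 32.9 CPM. Pericyte-like barcodes, which wrap capillaries, had 120 ± 18.5 CPM, and smooth muscle or myofibroblast-like barcodes 116 ± 19.1 CPM. Neighbours in this order overlapped. In the endothelium, general capillary-like barcodes had 84.2 ± 13.8 CPM, aerocyte-like barcodes 76.8 ± 23.7 CPM and venous-like barcodes 63.9 ± 21.1 CPM. In 7 of the 10 class contrasts edgeR called 0 members among 31 tests. These include Hoxd3 and Hoxd8 in general capillary-like and venous-like barcodes, with at most 2 UMIs of either gene per library, too few to give a call. The shares of genes called higher and lower were 7.77% and 4.58% in alveolar fibroblast-like, 5.45% and 1.76% in adventitial fibroblast-like, 9.25% and 8.25% in pericyte-like and 3.38% and 1.48% in smooth muscle-like barcodes. They were 4.58% and 3.04% in general capillary-like, 3.78% and 1.25% in venous-like and 3.62% and 1.87% in arterial-like barcodes, a class named among nuclei only. At an unadjusted p under 0.05 there were 5 of the 31, and DESeq2 called 0. Without the cells 1 was called, Hoxb3 higher in adventitial fibroblast-like barcodes.

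Within the endothelium 2 further patterns rested on 1 or 2 genes. Hoxb5 in aerocyte-like barcodes, the wide capillary cells of gas exchange, stood at 49.0 CPM in cells (130 UMIs) against 22.3 CPM in the rest of the endothelium. In the nuclei it stood at 2.74 and 4.93 CPM against 4.30 and 6.62 CPM, so it was higher in the cell library alone. edgeR compared it with the equal-weight mean of the other endothelial classes, not with this rest, which pools their UMIs. It was called higher (log2 difference 1.23, SE 0.39, edgeR adjusted p = 0.039), 1 of 5 members, where 9.40% of genes were higher and 7.29% lower. The call was lost without the cells, without nucleus replicate 2 and with DESeq2. Hoxa2 in venous-like barcodes had 11.4, 8.20 and 10.9 CPM on 15, 6 and 4 UMIs, against 5.15, 1.78 and 2.39 CPM in the rest of the endothelium. The ratios were 2.21 (1.12 to 4.19), 4.61 (1.49 to 12.2) and 4.57 (1.03 to 16.4). Hoxa2 did not pass the low-count filter there, and without the filter edgeR gave an adjusted p = 0.018. Hoxa7 was called higher in venous-like barcodes without the filter too (log2 difference 2.46, edgeR adjusted p = 0.047). Gm28308, which overlaps Hoxa2, was higher in venous-like barcodes as well (log2 difference 0.90, SE 0.19, adjusted p = 0.0093).

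Cells and nuclei gave different mixtures of Hoxb genes. Over whole libraries Hoxb5 had 528, 118 and 131 UMIs while Hoxb3 had 330, 692 and 567. In the mesenchyme there were 1.07 Hoxb5 UMIs per Hoxb3 UMI in cells and 0.145 and 0.164 in nuclei. In the endothelium the ratios were 2.19, 0.124 and 0.186, and in aerocyte-like barcodes 4.06, 0.105 and 0.125. In cells the mesenchymal counts were close, 162 Hoxb5 and 151 Hoxb3 UMIs, and the order varied by class. Alveolar fibroblast-like (0.872), adventitial fibroblast-like (0.842) and venous-like cells (0.762) had fewer Hoxb5 than Hoxb3 UMIs, while general capillary-like (1.75) and pericyte-like cells (1.41) had more. In nuclei Hoxb5 UMIs were fewer than Hoxb3 UMIs in both lineages of both libraries. The epithelium, with 15 to 36 Hoxb3 UMIs per library, had 1.93, 1.18 and 0.833.

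The tests of cells against nuclei rested on 1 cell library and 2 nucleus libraries, with the cell library assumed to vary like the nuclei. Over whole libraries, which also differ in their shares of cell types, Hoxb5 was the 1 member of 13 called in cells, where 16.5% of genes were higher and 8.51% lower (log2 difference 1.86, SE 0.40, edgeR adjusted p = 0.022). In the mesenchyme it was the 1 of 11 called, where 10.9% of genes were higher and 3.37% lower (1.60, SE 0.37, adjusted p = 0.046). In the endothelium Hoxb5 was higher in cells (2.66, SE 0.41, adjusted p = 0.0021) and Hoxb3 lower (-1.19, SE 0.37, adjusted p = 0.041), 1 of 9 members each, where 14.8% of genes were higher and 6.82% lower. The mesenchymal Hoxb5 call and the endothelial Hoxb3 call were lost with DESeq2, which called 1436 of 16209 genes higher in mesenchymal cells. With RLE scaling factors 0 of those 16209 genes were called in the mesenchyme, and without the low-count filter 0 of 21104, so every call was lost there and not that of Hoxb5 alone. Hoxb3 had a log2 difference of -1.19 in the mesenchyme (SE 0.33, adjusted p = 0.066), and Hoxb4 differed little there (0.15, SE 0.31, adjusted p = 0.74).

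Hoxa7 was toward cells in both lineages without passing, by log2 values of 2.12 in mesenchyme (SE 0.54, edgeR adjusted p = 0.057) and 1.96 in endothelium (SE 0.65, adjusted p = 0.055). The difference of Hoxb5 between cells and nuclei was smaller in mesenchyme than in endothelium by 1.13 on the log2 scale, which missed the threshold (edgeR interaction, a test chosen after seeing the data, adjusted p = 0.34). In that fit 0 of 14684 genes were called. Across the 13 members tested over whole libraries, longer genes had lower values in cells relative to nuclei (Spearman rho -0.65, a description across genes that share libraries). Hoxb3 spans 24605 bp, Hoxd3 36516 bp and Hoxb5 2786 bp. Whether intronic reads were counted is not given in the sources used here.

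**Figure D4:**
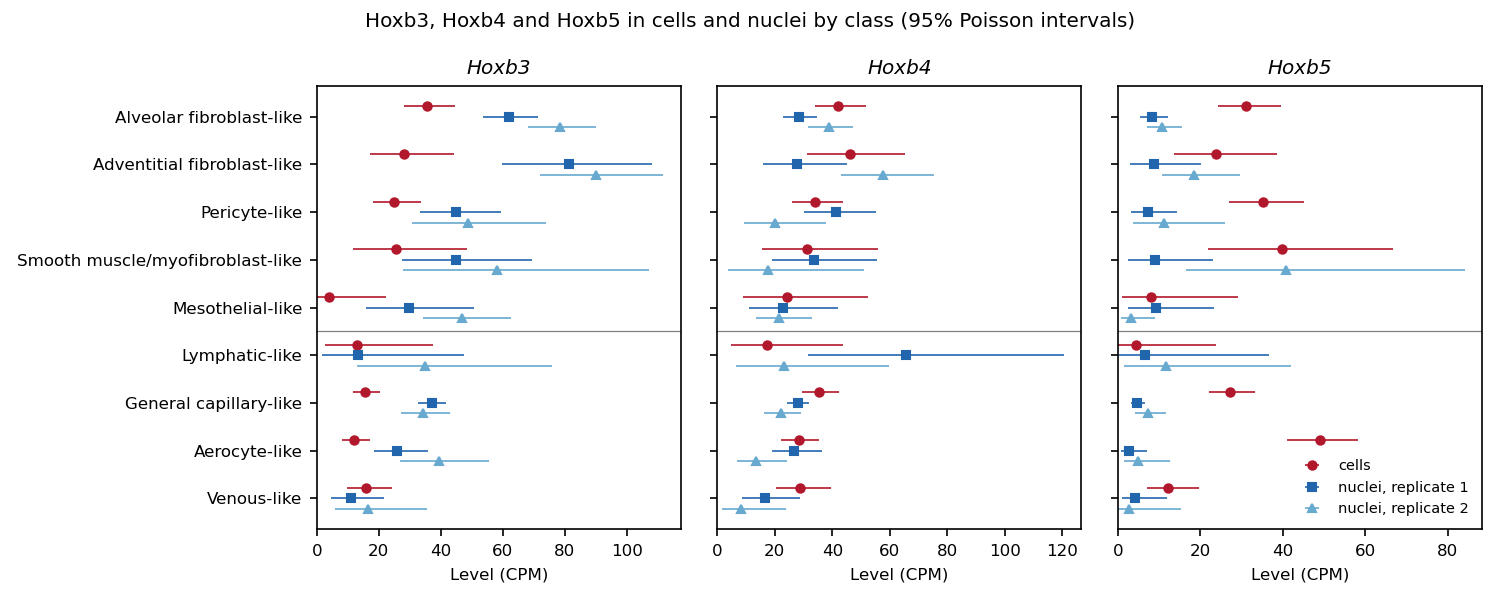
Levels (x axis, CPM) of Hoxb3, Hoxb4 and Hoxb5 in the mesenchymal and endothelial classes named in all 3 libraries (y axis), 1 point per library with 95% Poisson intervals. In aerocyte-like barcodes Hoxb5 is at 49.0 CPM in cells and at 2.74 and 4.93 CPM in nuclei, while Hoxb4 there is at 28.3, 26.7 and 13.6 CPM.

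Single-gene detection followed the levels. At 1000 UMIs Hoxb3 was found in 3.52% of mesenchymal cells (exact 95% interval 2.70 to 4.50%) and in 6.45% (5.19 to 7.92%) and 6.54% (5.43 to 7.80%) of mesenchymal nuclei. Hoxb5 was found in 3.06% of mesenchymal cells (2.30 to 3.98%) and in 0.683% and 0.910% of nuclei. Hoxb4 was found in 3.58%, 3.11% and 4.27%, and its intervals overlapped between cells and nuclei. The intervals cover counting error only.

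Compared with epithelial and immune barcodes, the non-coding genes within the Hox clusters that had enough counts, and the overlapping gene model Gm28308, were also higher in mesenchyme. All 5 tested between lineages were higher there than in epithelium, against 10.8% of all genes: Hoxaas3 by a log2 value of 4.13, Hoxb5os by 3.24, Hoxb3os by 2.72, Gm28308 by 2.58 and Hotairm1 by 2.15 (edgeR adjusted p from 2.5e-04 to 0.010). All 5 were higher in mesenchyme than in immune barcodes, against 18.3% of genes. A gene high in 1 lineage can pass the low-count filter through that lineage alone, so these counts describe only the 5 tested. Hoxd3os1 was not among them. Between mesenchyme and endothelium 0 of the 5 were called, where 11.3% of genes were higher and 8.59% lower in mesenchyme. In the endothelium 3 of 5 were higher than in the epithelium (11.7% of genes) and 4 of 5 higher than in immune barcodes (14.7%). Hoxb5os was called in neither of these endothelial contrasts (log2 difference to immune barcodes 0.21, edgeR adjusted p = 0.86), and Hoxb3os not against epithelium (adjusted p = 0.21). Hotairm1, a non-coding RNA of the Hoxa cluster, had 35.2, 18.0 and 19.3 CPM in mesenchyme and 27.4, 14.7 and 19.6 CPM in endothelium. Each overlaps a Hox gene in the annotation, so part of these counts could belong to either gene.

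The homeodomain cofactors of Hox proteins were called in both directions against epithelium. Of 9 Pbx, Meis and Pknox genes tested, 4 were higher and 3 lower in mesenchyme than in epithelium (edgeR; list median 0.45, all genes -0.03), against 10.8% and 13.3% of all genes. In endothelium 3 were higher and 4 lower than in epithelium, against 11.7% and 17.1%. Against immune barcodes 4 were higher and 0 lower in mesenchyme (18.3% and 14.8% of genes), and 3 higher and 1 lower in endothelium (14.7% each). Meis1 stood at 449, 619 and 737 CPM in mesenchyme, 636, 774 and 869 CPM in endothelium and 175, 21.5 and 43.4 CPM in epithelium, with log2 differences to epithelium of 3.06 and 3.48. Meis2 and Pknox2 were higher in both lineages. Pbx3 and Pbx4 were lower in both.

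Most chromatin regulators and retinoid genes were not called between these lineages and epithelium. Of 11 chromatin regulators of Hox clusters tested, 0 were called between mesenchyme and epithelium (list median -0.07), where 10.8% of all genes were higher and 13.3% lower. In endothelium 2 were higher than in epithelium and 0 lower, where 11.7% of all genes were higher and 17.1% lower. The 2 were the Polycomb methyltransferases Ezh2 (log2 difference 0.71) and Ezh1 (0.70). Of 10 retinoid pathway genes tested, 2 were higher and 1 lower in mesenchyme than in epithelium, where 10.8% and 13.3% of all genes were. Aldh1a2, which makes retinoic acid, was among the higher ones (3.93), and the receptor Rarb was lower in mesenchyme (-2.49) and in endothelium (-1.49). Of 11 regional lung transcription factors tested, 8 were higher and 1 lower in mesenchyme than in epithelium, against 10.8% and 13.3% of all genes. The list median was 3.47, and Gli2 (5.84), Tbx4 (4.54) and Tbx5 (4.51) led. In the endothelium 2 of these were higher than in epithelium, Tbx3 (3.12) and Tbx2 (1.86), against 11.7% of all genes. Another 2 were lower, among them the lung epithelial regulator Nkx2-1 (-3.15), against 17.1% of all genes. Tcf21 and Tbx2 were among the markers that named the classes. Only genes of the Hox clusters were kept out of the clustering, so the grouping could itself set part of these differences.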

How the data were processed

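Droplet RNA sequencing was available for 1 library of cells and 2 of nuclei. The authors deposited whole-number counts for every gene in every barcode, read here as UMI counts. The submitters' processing notes name STAR 2.5.3a and mm10. How reads were assigned to genes, by which annotation, strand or introns, is not given in the sources used here. Libraries held 35962788, 28062109 and 27148272 counts. The 21507 shared genes entered comparisons.

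A barcode was kept with 400 or more genes and a mitochondrial share below 20%. Scrublet marked 7, 82 and 9 barcodes. Only the 82 of nucleus replicate 1 were removed, since a rate under 0.5% was taken as a caller that had not worked, so doublets may remain in the cells and in nucleus replicate 2. Each table was clustered alone with scanpy 1.11.5 (2000 variable genes, 30 components, 20 neighbours, Leiden resolution 1). Naming a cluster took 3 or more markers of a class at 2-fold its level elsewhere, each in 10% of barcodes. Mixed clusters (76 cells, 23 nuclei) and 280 unnamed cells were left out of classes.

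Counts were summed per library and lineage or class (at least 20 barcodes) and tested with edgeR 4.0.16's quasi-likelihood test (TMM, filterByExpr), with library as a block between lineages and classes and Benjamini-Hochberg adjustment over all genes at 0.05. Libraries pair the sums because each gives 1 sum per class. Alternatives were DESeq2 1.42.0, other size factors, no filter, no block, left-out libraries and Leiden resolutions. The edgeR test was tested on simulated data for mesenchyme against epithelium (16232 genes), where it recovered 24% of genes set 2-fold apart and 100% at 4-fold, with 8 false calls among 170. Gene positions are from GENCODE M21.

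Members with at least 5 CPM in the mesenchymal or endothelial sum of 2 libraries, or with a call, are described singly. The members and lists were chosen with earlier results of these data known. A few genes covered by this choice are not reported here.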

Additional observations from a re-analysis of the deposited data

Results flagged for a closer look

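The mixed cluster of cells, which entered no comparison because it held markers of unrelated lineages, had a summed Hox level of 154.2 CPM on 38 UMIs in 76 cells. Hoxb9, a row of the cell table that entered no comparison, had 5 UMIs, of which 3 were in mesenchymal and 2 in endothelial cells. The order of Hoxd3 between cells and nuclei differed by lineage. In mesenchyme the cells had 0.575 CPM against 0.525 and 0.390 CPM in nuclei, on 3, 3 and 2 UMIs, which are too few to give a direction, while in endothelium the cells had 1.16 CPM against 2.82 and 8.47 CPM. The difference between the lineages was not tested.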

How the results depend on the processing

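The depth limits single members: 10 of the 16 had too few counts for the tests between lineages, and with 1 cell library the tests of cells against nuclei have no check of that library's own spread. The counts of Hox genes called changed in these settings, and the cause was not tested. Leaving out the low-count filter lets more members be tested, 16 between lineages against 6. There were then 10 calls for mesenchyme against epithelium (6 in the report), where 1910 of 21500 genes were higher and 2123 lower. Mesenchyme against endothelium had 6 (0), where 1822 were higher and 1578 lower. Alveolar fibroblast-like and pericyte-like barcodes had 1 each of 15 (0), where 1334 and 1391 of 21104 genes were higher and 701 and 1068 lower. Venous-like barcodes had 2 of 16 (0), where 614 of 21078 genes were higher and 293 lower. Cells against nuclei had 2 of 16 over whole libraries (1), where 3400 of 21501 genes were higher and 1783 lower. In the mesenchyme there were 0 (1), where 0 of all 21104 genes were called. In the endothelium there were 4 of 16 (2), where genes called went from 2408 higher and 1107 lower to 3146 and 1603. With no replicate block, under which genes called over all fell too (from 1756 to 726 higher for mesenchyme against epithelium), there were 4 for mesenchyme against epithelium and against immune (6 each), 2 for endothelium against epithelium (5), 3 for endothelium against immune (6), and 0 for mesothelial-like (2) and aerocyte-like barcodes (1). DESeq2 gave 0 for aerocyte-like and 1 for lymphatic-like barcodes (2), and 0 and 1 for cells against nuclei in mesenchyme and endothelium. RLE size factors gave 2 over whole libraries and 0 in the mesenchyme, again with 0 genes called over all. At Leiden resolution 0.5 there were 0 for mesothelial-like barcodes and 0 for cells against nuclei in the mesenchyme, with 0 of all 15887 genes called. At resolution 2 there were 1 for mesenchyme against endothelium, 1 for alveolar fibroblast-like, 1 for mesothelial-like and 3 for cells against nuclei in the mesenchyme. Leaving out 1 library gave ranges of 5 to 7 for mesenchyme against epithelium and 2 to 7 for endothelium against epithelium. The ranges were 3 to 5 for endothelium against immune and 0 to 2 for mesenchyme against endothelium. They were 0 to 1 for adventitial fibroblast-like, mesothelial-like and aerocyte-like barcodes, and the count was 1 for lymphatic-like barcodes. Members tested differed between the fits. Where no number of genes is named, the counts of this section stand without a share over all genes. Hoxb4 in cells against nuclei over whole libraries went from 0.32 to 0.47 without nucleus replicate 1 and to -0.089 without replicate 2, fits that leave no residual degree of freedom and so no count of calls. Of 387 alternatives for 47 single-gene results, 303 kept their direction and side of the threshold, 49 lost a call, 11 gained one, 23 had no test and 1 reversed. The mean share of barcodes with a Hox UMI was 6.73% in mesenchyme, 4.37% in endothelium and 1.29% in immune barcodes at 500 UMIs. At 2000 UMIs, over only the barcodes that reached that depth, it was 23.3%, 15.4%, 3.40% (epithelium) and 3.86%. Without thinning it was 33.9%, 21.1%, 6.40% and 5.57%. For cells against nuclei, no paired analysis was possible because each barcode belongs to 1 library and the numbers do not pair a cell library with a nucleus library. Arterial-like barcodes could not be compared without a nucleus library, and adventitial fibroblast-like barcodes were not named at resolution 0.5.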
